A study of Mus musculus with 6 samples.

Results

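Semaphorins, plexins and neuropilins, a family of guidance ligands with its receptors, account for 31 of the 54109 genes listed in the count tables of Msc80, a mouse Schwann cell line. They were chosen by symbol alone: 20 semaphorins, 9 plexins and 2 neuropilins. The antisense transcripts named after Plxna4 were not taken. The comparison is between 3 control cultures, with genotype Sox10 wt, and 3 Sox10ko cultures of the same line, in which Sox10 had been disrupted with CRISPR/Cas9. The product of Sox10 is a transcription factor of neural crest cells and of glia. All 6 cultures were grown in DMEM with fetal calf serum, penicillin and streptomycin, with no other agent and no time course. The labels speak of a clone as the source of the Sox10ko cultures without saying whether it was 1 clone or more, so that loss of Sox10 and the history of a clone cannot be told apart. They call the cultures biological replicates but do not say how these were separated, so p-values measure the spread between these samples, which may be partly technical.

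Semaphorins are guidance proteins that share a propeller-shaped Sema domain. Class 3 members are secreted, classes 4, 5 and 6 span the membrane, and class 7 is held by a lipid anchor. Plexins are the receptors; their cytoplasmic part acts on small GTPases of the Rap and R-Ras kind, which makes the actin cytoskeleton of a growth cone or migrating cell collapse or turn. Most class 3 ligands cannot bind plexins firmly and need neuropilins, which also bind VEGF, as co-receptors. In peripheral nerve this system is known for steering axons and for contacts between axons and Schwann cells.

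The libraries held between 32328618 and 41834431 counted reads, and the members took 0.316% to 0.332% of the reads in control and 0.265% to 0.273% in Sox10ko. Levels are given as CPM, read counts put on a common library size by TMM scaling, at which 1 read was worth 0.0235 to 0.0300 CPM. Levels of different genes are set side by side only as CPM per kb of exonic length. Sox10 transcript in the Sox10ko libraries stood at 13.3%, 10.9% and 18.9% of the control mean, so it was lower in each library labelled Sox10ko (edgeR adjusted p = 0.000186). Of 10 Schwann cell markers, Sox10 included, 9 were lower in Sox10ko (Gfap passed the filter on low reads through control alone). The summed level of the 10 went from 4720 to 5266 CPM in control to 254 to 346 CPM in Sox10ko. Ngfr made up most of the control sum (2965, 2693 and 3237 CPM). Ncam1 did not pass (edgeR adjusted p = 0.905) and held 95.1, 184 and 187 CPM in Sox10ko. Markers of other cells moved too. Beside these counts and those that follow, 14.7% of all genes tested were called lower and 17.3% higher. Smooth muscle markers (4 of 5 higher, of which Des alone passed the filter through both groups, and Acta2, Cnn1 and Myh11 through Sox10ko alone) summed to 0.759 to 1.03 CPM in control and 118 to 670 CPM in Sox10ko. That Sox10ko sum was mostly Acta2 (107, 644 and 321 CPM), with Des at 9.08, 23.3 and 24.1 CPM. Fibroblast markers (4 of 6 tested, 2 higher) summed to 285 to 335 CPM in control and 657 to 1910 CPM in Sox10ko. Leukocyte markers (3 of 7 tested, 2 higher, with Cd3e and Itgam at 0 reads) summed to 6.22 to 8.08 and 19.3 to 27.5 CPM. The fibroblast sum in Sox10ko was mostly Col1a1 (481, 1684 and 1092 CPM). Col3a1 and Pdgfra did not pass, and Dcn and Lum had too few reads to be tested. Endothelial markers (2 of 7 tested, 1 lower, Cdh5, which passed the filter through control alone) summed to 2.20 to 2.41 and 0.360 to 0.704 CPM. Of 7 neuronal markers, with Rbfox3 at 0 reads, 5 were tested and Tubb3 was lower (87.9 CPM in control and 50.2 in Sox10ko on average), while the other 4 had log2 fold changes above 0 that did not pass, and the list's median was 0.56. That median is the value of Elavl4, which rests on Sox10ko replicate 1 (1.86 CPM). Its replicates 2 and 3, at 0.0235 and 0.0498 CPM, lay below every control (0.317 to 0.569 CPM). Elavl3 and Syt1 also overlapped between the groups. The neuronal sum, mostly Tubb3, was 89.3 to 101 and 55.4 to 72.9 CPM. The part of these shifts in the results below was not tested. In bulk RNA, fewer cells of a type and less RNA per cell cannot be told apart.

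Most members were transcribed in Msc80 cells, and more of them were lower than higher after loss of Sox10. Of the 31 members, 30 had enough reads to be tested. In Sox10ko 11 were lower and 5 higher, while 14 did not pass (edgeR quasi-likelihood test, adjusted p under 0.05 over all 15427 genes tested). Over all genes tested 14.7% were called lower, 17.3% higher and 32.0% in either direction. The median log2 fold change was -0.38 over the members and 0.02 over all genes tested. Control and Sox10ko values did not overlap in 18 of the 30 members, against 49.3% of all genes tested. Sox10ko lay below control in 11 of them and above in 7, against 23.8% and 25.5% of all genes. Of the called members, 10 were lower and 5 higher by at least 2-fold, where 6.09% and 11.0% of all genes tested met the same rule. Among semaphorins 7 of 19 were lower and 4 higher, and among plexins 4 of 9 were lower and 1 higher. Neither neuropilin passed. Sema3g and Sema4d passed the filter on low reads through the control libraries alone, Sema3d and Sema5b through the Sox10ko libraries alone. For these 4 the filter favoured the direction seen, so that direction is no evidence by itself. Sema3g and Sema5b are among the 16 called, and among those changed by at least 2-fold.

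**Figure D1:**
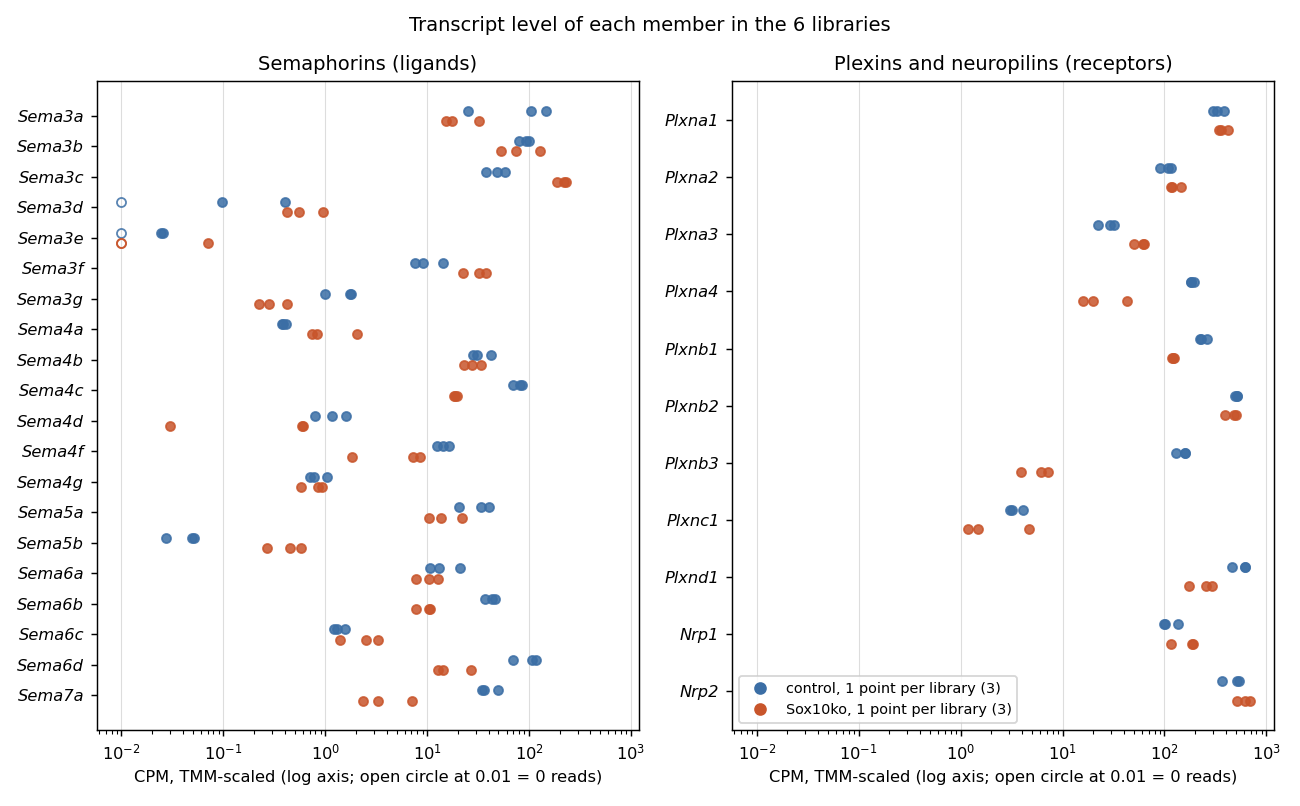
Level of each member in every library, as TMM-scaled CPM on a log axis (blue: 3 control libraries; orange: 3 Sox10ko libraries; open circles mark 0 reads). Plxnb3 lies between 130.4 and 161 CPM in control and between 3.95 and 7.25 CPM in Sox10ko, whereas the points of Plxna1, Plxnb2 and Nrp2 overlap.

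Plexins of the B group are receptors mainly for class 4 and class 5 semaphorins. Of the 3, 2 were called lower, beside 14.7% of all genes tested. Plxnb3 (ENSMUSG00000031385; chromosome X, 73757090 to 73772514, plus strand, GRCm38 as for all positions given), known as a receptor for Sema5A and expressed by glia, had 130.4, 160.2 and 161 CPM in the controls (in the order of replicates 1, 2 and 3, here and below) and 3.95, 7.25 and 6.13 CPM in Sox10ko. Relative to the control mean, 2.63%, 4.82% and 4.08% remained. The fall was 25.9-fold (log2 fold change -4.70 ± 0.24 SE, n = 3 per group, edgeR adjusted p = 5.32e-05), the largest of all members. Plxnb1 (chromosome 9, 109095389 to 109119917, plus strand), a receptor for Sema4D that also pairs with the receptor Met, stood at 225, 260.4 and 229 CPM in control and at 122, 123 and 118 CPM in Sox10ko. It fell 1.97-fold (-0.98 ± 0.09, edgeR adjusted p = 0.000491), and its Sox10ko libraries lay close together, at 49.6% to 51.6% of the control mean. Plxnb2, a receptor for Sema4C and other class 4 ligands, was read at 521, 519.9 and 490.2 CPM in control and at 486, 392 and 500.0 CPM in Sox10ko. These groups overlapped and the gene did not pass (edgeR adjusted p = 0.363).

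The windows before the start sites are shown for Plxnb3, for Sema7a, the ligand with the largest fall, and for Plxna3, a neighbour of Plxnb3 on chromosome X that changed in the opposite direction. The letters ACAAAG and ACAATG, which are core forms of the motif that SOX proteins bind, were searched on both strands in the 250 bases before each start in the RefSeq promoter table (GRCm38.p6) and are in capitals. Matches of these letters cannot overlap each other. Each sequence is given 5′ to 3′ on the gene's strand.
Plxnb3, chrX:73756853-73757102, plus strand: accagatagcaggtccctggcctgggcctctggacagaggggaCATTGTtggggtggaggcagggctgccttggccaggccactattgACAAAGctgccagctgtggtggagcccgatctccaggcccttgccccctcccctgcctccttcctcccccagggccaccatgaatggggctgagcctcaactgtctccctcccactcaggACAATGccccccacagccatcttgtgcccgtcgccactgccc
Sema7a, chr9:57939862-57940111, plus strand: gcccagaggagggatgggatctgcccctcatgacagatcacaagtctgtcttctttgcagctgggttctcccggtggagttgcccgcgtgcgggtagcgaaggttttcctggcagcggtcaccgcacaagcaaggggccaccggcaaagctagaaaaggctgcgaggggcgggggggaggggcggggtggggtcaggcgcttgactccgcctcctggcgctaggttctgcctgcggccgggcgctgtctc
Plxna3, chrX:74328816-74329065, plus strand: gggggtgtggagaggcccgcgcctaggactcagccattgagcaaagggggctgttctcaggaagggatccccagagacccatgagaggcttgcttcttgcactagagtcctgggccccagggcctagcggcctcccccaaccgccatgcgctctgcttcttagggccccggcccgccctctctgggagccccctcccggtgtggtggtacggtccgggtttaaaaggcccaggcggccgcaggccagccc
The Plxnb3 window held 3 matches, with leftmost bases 207, 162 and 42 bases before the start, and neither the Sema7a nor the Plxna3 window held one. Among all 32851 windows, 25.24% held at least 1 match and 0.49% at least 3. The cut of 3 is the count of the Plxnb3 window itself, the only member window to reach it. Windows were found for 26 of the 31 members. Of these 37 windows 8 held a match (21.62%): 3 of the 10 called lower with a window had one, 1 of the 4 called higher and 4 of the 11 that did not pass. A match is a run of letters and not a measured binding site.

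Plexins of the A group transmit class 3 signals with neuropilins and bind class 6 semaphorins directly. Plxna4 (chromosome 6, 32144268 to 32588192, minus strand), a receptor for Sema6A and Sema6B and for Sema3A with Nrp1, was read at 194, 183 and 182 CPM in control and at 15.8, 19.9 and 42.8 CPM in Sox10ko. The groups lay far apart, with the third Sox10ko library above the other two, and the fall was 7.11-fold (log2 fold change -2.83 ± 0.36, edgeR adjusted p = 0.00141). Plxna3 (chromosome X, 74329066 to 74344689, plus strand), a partner of Nrp2 in responses to Sema3F, went the other way, from 29.1, 31.7 and 22.3 CPM to 50.0, 61.4 and 63.1 CPM. It rose 2.10-fold (1.07 ± 0.16, edgeR adjusted p = 0.00275), and all 3 Sox10ko libraries were above all 3 controls. Plxna3 starts 556552 bases after the end of Plxnb3, so members with opposite changes shared this stretch of chromosome X. Plxna1, the most abundant member of the group, stood at 303, 380.4 and 331 CPM in control and at 344, 360.4 and 418 CPM in Sox10ko, with overlapping groups (edgeR adjusted p = 0.416). Plxna2, at 109, 90.3 and 115 against 116, 146 and 119.7 CPM, had Sox10ko values just above those of control and did not pass (edgeR adjusted p = 0.156, or limma adjusted p = 0.00810 once chromosome medians were removed). In CPM per kb, Plxna4 held 24.0%, 20.2% and 21.8% of the summed A group in control and 2.15%, 2.45% and 4.73% in Sox10ko, while Plxna1 held 61.9% ± 3.44 and 71.3% ± 1.85 (SD, n = 3).

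Plxnd1 (chromosome 6, 115954811 to 115995005, minus strand), the receptor of Sema3E that is best known from blood vessels, was read at 616, 463 and 613 CPM in control and at 173, 295 and 258 CPM in Sox10ko. All Sox10ko libraries were below all controls, a fall of 2.33-fold (log2 fold change -1.22 ± 0.21, edgeR adjusted p = 0.00527). Plxnc1, the plexin that binds Sema7A, was scarce in both groups, at 3.04, 4.12 and 3.17 CPM in control and 4.67, 1.48 and 1.17 CPM in Sox10ko. The first Sox10ko library lay above all controls and the other two below them, and the gene did not pass (edgeR adjusted p = 0.497). Without that library Plxnc1 was lower (log2 fold change -1.38, edgeR adjusted p = 0.0133).

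Ranked per length, Plxnd1 (77.3 ± 12.0 CPM per kb) and Plxnb2 (66.1 ± 2.26) led the plexins in control, and their ranges overlapped. In Sox10ko Plxnb2 (59.5 ± 7.57 CPM per kb) stood clear of Plxna1 (41.3 ± 4.34), whose range overlapped with that of Plxnd1 (33.2 ± 8.54). Plxnb3 went from the fifth place, with a range that met that of Plxnb1 above it, to the place before last. Plxnc1 was last in both groups, at 0.413 and 0.292 CPM per kb.

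Neuropilins had no change past the threshold. Nrp2, which pairs with Sema3B, Sema3C, Sema3F and Sema3G, was read at 365, 513 and 543 CPM in control and at 684, 618 and 509.9 CPM in Sox10ko. The groups overlapped (log2 fold change 0.35 ± 0.18, edgeR adjusted p = 0.178). Nrp1, the co-receptor of Sema3A and of VEGF, stood at 135, 101 and 98.6 CPM in control and at 115, 193 and 188 CPM in Sox10ko (0.56 ± 0.22, edgeR adjusted p = 0.0912). The first Sox10ko library lay within the control range, and without it Nrp1 was higher (log2 fold change 0.76, edgeR adjusted p = 0.0136). With the plexin sum lower in Sox10ko, the neuropilin share of the summed level of all members, in CPM per kb, was 12.9% ± 1.46 in control and 22.2% ± 1.82 in Sox10ko, and the plexin share 63.0% ± 0.284 and 53.7% ± 4.04. The semaphorin share was 24.2% ± 1.25 and 24.1% ± 3.21. The summed plexin level itself was 253, 247 and 256 CPM per kb in control and 153, 163 and 178 in Sox10ko, and the neuropilin sum 44.7, 53.7 and 55.9 against 69.6, 71.9 and 62.2.

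**Figure D2:**
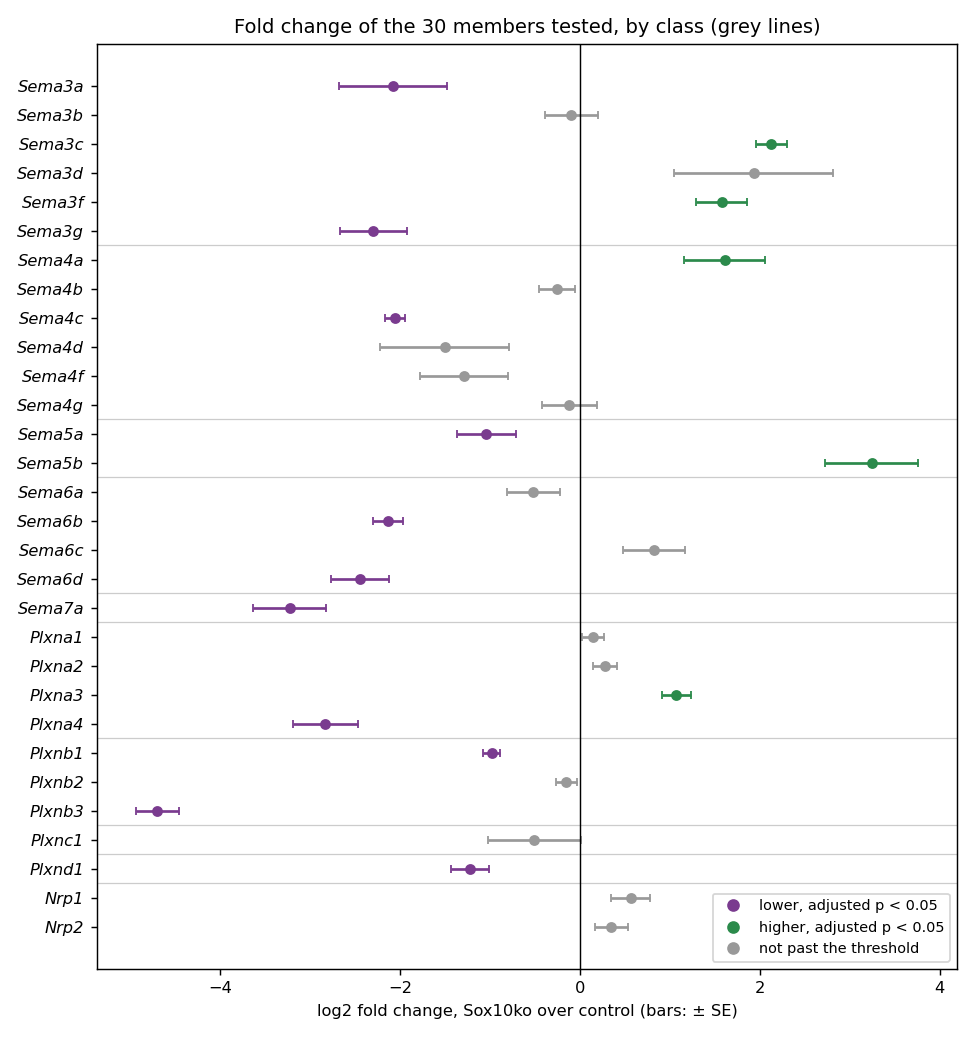
Log2 fold change of Sox10ko over control for the 30 members tested, ordered by class, with bars of 1 SE (purple: lower; green: higher; grey: not past an adjusted p of 0.05). The fall of Plxnb3 at -4.70 is the largest, and classes 6 and 7 of the semaphorins hold no called rise.

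Secreted class 3 semaphorins had calls in both directions, with 2 higher and 2 lower of the 6 tested, beside 17.3% and 14.7% of all genes tested. Of the lower ones, Sema3a had overlapping groups, and Sema3g passed the filter on low reads through the control libraries alone. Sema3c (chromosome 5, 17574281 to 17730268, plus strand), a ligand of Nrp1 and Nrp2 known from neural crest migration into the heart, was read at 48.9, 58.6 and 38.2 CPM in control and at 228, 219.7 and 189 CPM in Sox10ko. The groups were far apart, and the rise was 4.37-fold (log2 fold change 2.13 ± 0.17, edgeR adjusted p = 0.000245). Sema3f (chromosome 9, 107681500 to 107710475, minus strand), a repellent that acts through Nrp2, went from 7.54, 14.2 and 9.18 CPM to 37.6, 32.5 and 22.3 CPM and rose 2.99-fold (1.58 ± 0.28, edgeR adjusted p = 0.00584). Sema3b, 72271 bases away from Sema3f on chromosome 9, stood at 80.4, 100.1 and 93.6 CPM in control and on both sides of that range in Sox10ko, at 128, 53.5 and 74.9 CPM, without passing the test (edgeR adjusted p = 0.833).

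Sema3a (chromosome 5, 13125414 to 13602565, plus strand), the founding repellent of sensory and motor axons, fell 4.21-fold (log2 fold change -2.07 ± 0.60, edgeR adjusted p = 0.0357), but its controls disagreed. They were read at 145, 25.2 and 103 CPM, and the Sox10ko libraries at 15.3, 32.1 and 17.5 CPM, so that control replicate 2 lay inside the Sox10ko range. The call did not survive removal of control replicate 1 (edgeR adjusted p = 0.107) or 3 (0.0990) or of Sox10ko replicate 1 (0.0936) or 3 (0.0929), and was also lost with limma-voom (adjusted p = 0.0823) and with chromosome medians removed (limma adjusted p = 0.0628). Over the alternatives the adjusted p ran from 0.00335 to 0.130. Sema3g, a ligand of Nrp2, was scarce and fell from 1.00, 1.77 and 1.76 CPM to 0.419, 0.282 and 0.224 CPM (-2.29 ± 0.38, edgeR adjusted p = 0.00404). The filter favoured that direction, which is no evidence by itself. Sema3d, at 19 reads over the controls against 76 over the Sox10ko libraries, did not pass (edgeR adjusted p = 0.138, or 0.0440 without control replicate 1, which held 15 of the control reads). Sema3e, the ligand of Plxnd1, was represented by 2 control reads and 3 Sox10ko reads and could not be tested. Sema3d, Sema3a, Sema3e and Sema3c lie in this order on chromosome 5, with 536466, 422711 and 3317592 bases between them, and Sema3a and Sema3c were called, in opposite directions.

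Class 4 semaphorins, ligands of B plexins, had 1 gene lower and 1 higher of 6 tested. These counts lie near the background, where 14.7% and 17.3% of all genes tested were called lower and higher. Sema4c (chromosome 1, 36548639 to 36558349, minus strand), the ligand of Plxnb2, was read at 86.1, 69.6 and 81.4 CPM in control and at 18.8, 18.4 and 19.7 CPM in Sox10ko. The Sox10ko libraries were nearly equal, and the fall was 4.17-fold (log2 fold change -2.06 ± 0.11, edgeR adjusted p = 6.93e-05). An RNA on the opposite strand (D430040D24Rik) shares 334 of its exonic bases with Sema4c and had 170 to 192 reads in control and 31 to 34 in Sox10ko. The library kit marks strand, but with no strand setting of the counting in the sources used here reads of that overlap cannot be assigned. Gm26811 likewise shares 970 exonic bases with Plxna1 and Gm7628 257 with Plxnb1, and neither had over 203 reads in a library. Sema4a, known from immune cells, was higher at a low level, with 0.380, 0.384 and 0.415 CPM in control and 0.749, 0.822 and 2.04 CPM in Sox10ko (1.61 ± 0.45, edgeR adjusted p = 0.0322). It lost the call without any 1 of the 3 control libraries (edgeR adjusted p from 0.0942 to 0.103) and without Sox10ko replicate 3, where the fold went from 3.05 to 1.98 (edgeR adjusted p = 0.0565). It was lost with limma-voom as well (adjusted p = 0.0542), and over the alternatives its adjusted p ran from 0.0190 to 0.103.

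Sema4f, at 12.5, 14.2 and 16.3 CPM in control and 8.48, 7.32 and 1.82 CPM in Sox10ko, had no overlap between groups but did not pass (log2 fold change -1.29 ± 0.49, edgeR adjusted p = 0.0862). It is known to hold Schwann cells in contact with axons. The third Sox10ko library lay far below the others, and without it Sema4f was lower with a smaller change (-0.87, edgeR adjusted p = 0.0158); DESeq2 (adjusted p = 0.0194) and limma-voom (adjusted p = 0.0448) called it with all libraries. Sema4b, at 33.7 ± 7.46 CPM in control and 28.3 ± 5.52 in Sox10ko, did not pass (edgeR adjusted p = 0.372). Sema4d, the ligand of Plxnb1, and Sema4g were below 2 CPM in every library and did not pass either (edgeR adjusted p = 0.152 and 0.811).

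Among membrane-bound ligands, class 5 had 1 gene lower and 1 higher of 2 tested, and class 6 had 2 lower and 0 higher of 4. The 1 member of class 7 was lower. Over all genes tested, 14.7% were called lower and 17.3% higher. The higher one, Sema5b, passed the filter on low reads through the Sox10ko libraries alone. Sema6d (chromosome 2, 124089969 to 124667770, plus strand), a ligand of Plxna1 and Plxna4, went from 116, 70.2 and 106 CPM to 14.2, 12.9 and 26.6 CPM, a fall of 5.43-fold (log2 fold change -2.44 ± 0.32, edgeR adjusted p = 0.00165). Sema6b (chromosome 17, 56123085 to 56140343, minus strand), which binds Plxna4, went from 43.2, 37.1 and 46.2 CPM to 10.8, 10.4 and 7.77 CPM, a fall of 4.38-fold (-2.13 ± 0.16, edgeR adjusted p = 0.000216). In both genes every Sox10ko library lay below every control.

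Sema7a (chromosome 9, 57940112 to 57962865, plus strand), the anchored ligand that signals through integrin beta-1 and Plxnc1, was read at 49.6, 35.9 and 34.5 CPM in control and at 2.37, 3.29 and 7.13 CPM in Sox10ko. Its fall of 9.36-fold was the largest among ligands (log2 fold change -3.23 ± 0.41, edgeR adjusted p = 0.00137), and it was 14.2-fold without Sox10ko replicate 3, the library with the most Sema7a left.

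Sema6a, which can act as ligand and receptor, was read at 10.7, 21.1 and 12.9 CPM in control and 7.85, 10.5 and 12.8 CPM in Sox10ko, with overlapping groups (edgeR adjusted p = 0.222). Sema6c, below 4 CPM in every library, did not pass (edgeR adjusted p = 0.113, or 0.0254 and higher in Sox10ko without Sox10ko replicate 3). Sema5a, the ligand of Plxnb3, went from 33.5, 40.5 and 20.6 CPM to 21.8, 10.5 and 13.8 CPM. Control replicate 3 and Sox10ko replicate 1 crossed, and the fall of 2.06-fold passed narrowly (-1.04 ± 0.33, edgeR adjusted p = 0.0474). The call was lost without control replicate 1 or 2 or Sox10ko replicate 2 or 3 (edgeR adjusted p from 0.105 to 0.138), with library size alone as scaling (0.0576) and over genes of at least 5 CPM (0.0582), and over the alternatives the adjusted p ran from 0.00612 to 0.138. Sema5b, a scarce ligand with 5 control reads against 51 in Sox10ko, was higher, with at most 0.573 CPM in any library (3.25 ± 0.52, edgeR adjusted p = 0.00355).

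The make-up of the ligand pool turned over between the groups. In CPM per kb, class 3 held 35.0%, 37.3% and 35.9% of the summed semaphorin level in control and 78.6%, 75.0% and 70.1% in Sox10ko. Sema3c alone held 7.07% ± 1.74 in control and 40.5% ± 4.38 in Sox10ko (SD, n = 3). Sema3b, whose level did not pass as changed, held 19.9% ± 3.26 and 23.7% ± 7.43. Class 4 went from 27.2% ± 1.25 to 14.5% ± 1.86, class 6 from 22.5% ± 2.00 to 7.86% ± 1.33, and class 7 from 12.5% ± 1.97 to 1.83% ± 1.21, and for each of these classes the ranges of the groups did not overlap. Class 5 stayed under 2.5% in every library. The summed semaphorin level itself was 96.7 ± 5.46 CPM per kb in control and 73.7 ± 10.2 in Sox10ko. Class 3 summed to 34.8 ± 0.919 and 55.2 ± 10.5 CPM per kb, of which Sema3c was 6.80 ± 1.43 and 29.7 ± 2.91. Shares of a whole are tied to each other, and no test was made on them. In control the order per length was led by Sema3b (19.1 ± 2.10 CPM per kb) and Sema4c (17.2 ± 1.84), whose ranges overlapped. Sema7a (12.1 ± 2.53) came next, with a range that overlapped with that of Sema6b. In Sox10ko the order was led by Sema3c (29.7 ± 2.91) and Sema3b (17.9 ± 8.06), whose ranges also overlapped. Sema3f (5.93 ± 1.49) followed, with a range that overlapped with that of Sema4b.

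**Figure D3:**
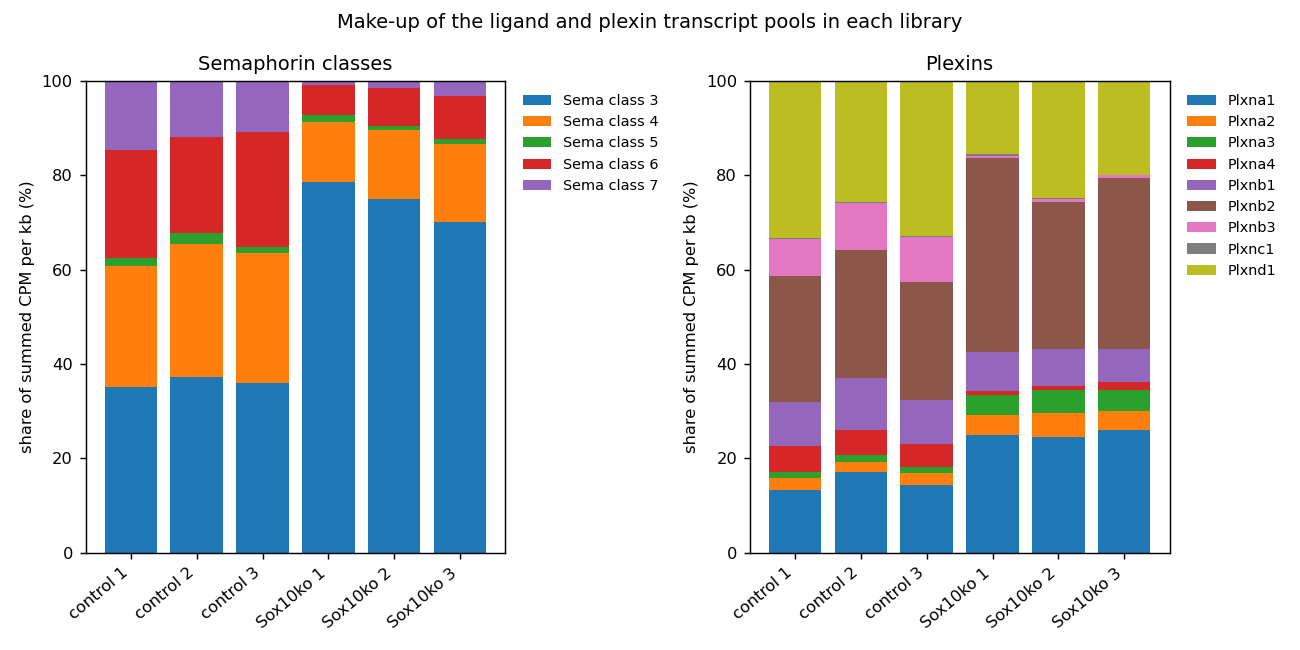
Share (%) of the summed CPM per kb held by each semaphorin class (left) and by each plexin (right), 1 stacked bar per library. Class 3 semaphorins take 35.0% to 37.3% in the control bars and 70.1% to 78.6% in the Sox10ko bars, and the bands of Plxna4 and Plxnb3 are thin in Sox10ko.

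Genes that work with these receptors were read from a list of 53: co-receptors and other receptors or ligands, transducers inside the cell, and proteases that process semaphorins. Of 48 tested, 7 were higher and 14 lower, where 17.3% and 14.7% of all genes tested were, and the median log2 fold change was -0.19 against 0.02 over all genes. Chl1, Trem2 and Pcsk6, counted among these calls, passed the filter on low reads only through the group in which they are high. The filter favoured that direction, which is therefore no evidence by itself. Among 15 tested co-receptors and other ligands 4 were lower and 1 higher. Itga1, the integrin chain that joins Itgb1 in the Sema7A receptor of some cells, fell 7.07-fold from 174 ± 18.9 to 24.6 ± 2.6 CPM (edgeR adjusted p = 4.14e-05). Itgb1 itself, at 805 ± 47.7 CPM in control and 701 ± 45.6 in Sox10ko, was not called (edgeR adjusted p = 0.168). Nrcam, an adhesion molecule that associates with Nrp2, fell from 234 ± 27.7 to 32.1 ± 7.0 CPM (edgeR adjusted p = 0.000117). Chl1, a relative that associates with Nrp1, was also lower, with 113 control reads against 3 Sox10ko reads and a pooled ratio of 37.4 (exact 95% counting interval 12.5 to 184, or a ratio of 73.5 without Sox10ko replicate 3). Met, the receptor that pairs with Plxnb1, fell 4.41-fold from 1063 ± 191 to 241 ± 76.2 CPM (edgeR adjusted p = 0.0013). Trem2, a partner of Plxna1 in myeloid cells, was the higher one, with 7 reads against 92 (12.4-fold, or 5.31-fold without Sox10ko replicate 3; edgeR adjusted p = 0.0203), and lost its call without any 1 control library (edgeR adjusted p from 0.0606 to 0.0827). Its adaptor Tyrobp had 0 reads in all libraries.

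Among 30 transducers 9 were lower and 5 higher, beside 14.7% and 17.3% of all genes tested, and the higher count lies near that background. Rras, a GTPase that plexins switch off, rose 2.90-fold from 12.9 ± 0.399 to 37.4 ± 2.48 CPM (edgeR adjusted p = 0.000161). Mical2, of the family of actin-oxidising enzymes downstream of A plexins, rose 2.25-fold from 122 ± 7.31 to 274 ± 18.1 CPM (edgeR adjusted p = 0.000286), while Mical3 was among the lower genes (1.73-fold). Rnd1, a GTPase that binds plexins directly, rose 4.21-fold to 5.05 ± 0.840 CPM (edgeR adjusted p = 0.00189), and Dpysl3, of the CRMP family that relays Sema3A signals, 1.66-fold to 279 ± 25.3 CPM (edgeR adjusted p = 0.00273). Dpysl4 of the same family fell 4.09-fold from 28.4 ± 3.74 to 6.96 ± 2.21 CPM (edgeR adjusted p = 0.00109), and Limk1, the kinase of cofilin, 2.66-fold from 132 ± 26.2 to 49.8 ± 3.27 CPM (edgeR adjusted p = 0.000834). Cdk5, higher, and Rap1a, lower, lost their calls without control replicate 1 or 3 (edgeR adjusted p from 0.0542 to 0.0828).

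Of the proteases, Furin, which cleaves class 3 semaphorins, was lower at 206 ± 5.55 against 273 ± 32.2 CPM (edgeR adjusted p = 0.0278), a call lost without control replicate 1 or 3 or Sox10ko replicate 1 or 3 (edgeR adjusted p from 0.0544 to 0.0721). Pcsk6, a related protease, was higher: its 3 control reads all came from replicate 3 and stood against 56 Sox10ko reads (edgeR adjusted p = 0.0101), a pooled ratio of 18.8 (exact 95% counting interval 6.11 to 93.9; 12.5 without control replicate 2, and a floor of 3 reads over the group puts it at least 12.2-fold higher when control replicate 3 is left out).

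**Figure D4:**
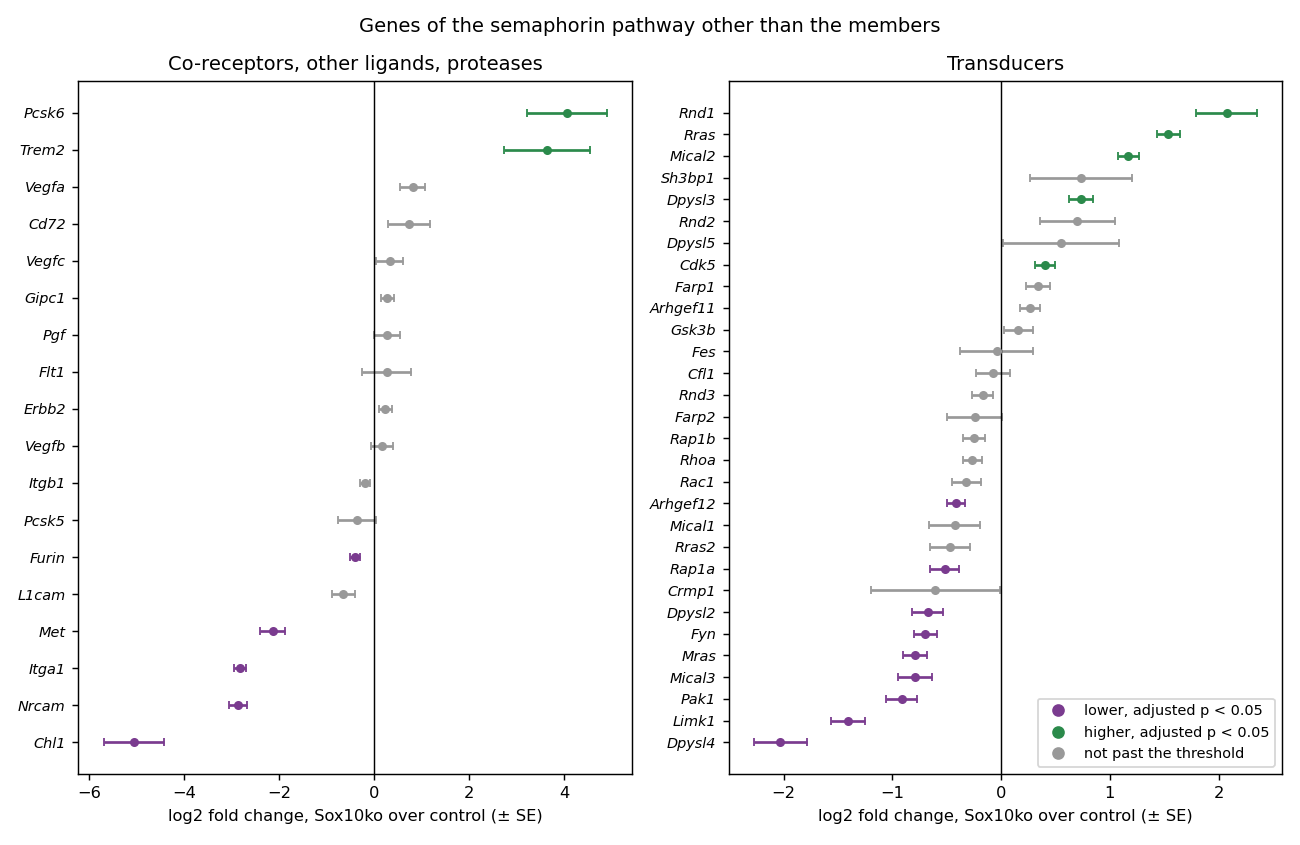
Log2 fold change of Sox10ko over control, with bars of 1 SE, for the 48 tested genes that work with semaphorins and plexins (left: co-receptors, other ligands and proteases; right: transducers; purple: lower; green: higher; grey: not past the threshold). Rnd1, Rras and Mical2 lead the called rises among transducers, and Chl1, which rests on 3 reads in Sox10ko, lies farthest to the left.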

How the data were processed

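The deposited tables hold raw read counts per Ensembl gene, 1 table per library, with no normalisation by the authors. The submitters' processing notes name mm10 (GRCm38), STAR 2.6.0c, HTSeq and DESeq2, without their roles. The annotation and the strand setting of the counting are not stated there. Symbols matched 54042 of 54109 IDs. Coordinates and exonic lengths came from GENCODE M21 (GRCm38).

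Counts were filtered with filterByExpr of edgeR 4.0.16 (R 4.3.3), which keeps a gene with at least 0.249 CPM in 3 libraries, scaled by TMM and tested for genotype with the two-sided quasi-likelihood F test, with Benjamini-Hochberg adjustment over 15427 genes. The SE is the size of the log2 fold change over the square root of F. The step was tested on simulated data. Where a group held 1 to 3 reads, a ratio of pooled CPM is given with an exact (Clopper-Pearson) interval. No molecular identifiers are named in the labels, so intervals and floors describe counting error alone. Replicates differed by more than sampling noise (chi-square per degree of freedom from 24.7 to 80.9). Alternatives were other scalings and filters, DESeq2 1.42.0, limma 3.58.1 (voom, and log2 CPM with chromosome medians removed), a replicate block and leaving out each library.

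The members and lists were chosen with earlier results of these data known. Every member could be named; called members averaging 1 CPM or more and the top member of each class are given per library. Of the pathway list, up to 5 genes per direction with the lowest adjusted p are named; Chl1, Mical3, Trem2, Cdk5, Rap1a, Tyrobp, Itgb1, Furin, D430040D24Rik, Gm26811 and Gm7628 were named after their values were seen.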

Additional observations from a re-analysis of the deposited data

How the results depend on the processing

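Of the 16 called members, 13 kept their call and direction in each of the alternatives in which they were tested (14, or fewer where a stricter filter removed a gene), and Sema3a, Sema4a and Sema5a did not. The 13 include Sema3g and Sema5b, whose direction the filter on low reads favoured, so their kept direction carries less weight. The count of members higher in Sox10ko was 5, and 3 over genes of at least 5 CPM, since Sema4a and Sema5b were then not tested. Leaving out 1 library gave 4 to 6 higher and 9 to 11 lower members, 5 to 8 higher and 12 to 17 lower genes of the pathway list, and 2869 to 4681 changed genes in all against 4939 (2869 without control replicate 3). Among members that did not pass, Sema3b ran from -0.52 to 0.14 and Sema4g from -0.26 to 0.057 (log2 fold change) as libraries were left out, with a positive sign for Sema3b without Sox10ko replicate 2 and for Sema4g without control replicate 2 or Sox10ko replicate 3; the cause was not tested. Cultures that share a replicate number were not more alike than others: their deviations from group means correlated at -0.21, -0.10 and 0.07. In pairs of unlike number the correlations ran from -0.12 to 0.19. Whether the cultures were paired when grown cannot be read from these values. With the replicate block 3537 genes, 4 higher and 9 lower members, and 6 higher and 13 lower pathway genes were called; Sema3a (edgeR adjusted p = 0.130), Sema4a (0.0552) and Sema5a (0.0625) were the members that lost the call. Without division by length, shares in control became 18.1% for semaphorins, 64.2% for plexins and 17.7% for neuropilins of all members, 31.0% for A and 42.4% for B plexins among plexins, and 40.3%, 21.8%, 5.35%, 25.9% and 6.64% for classes 3 to 7 among semaphorins. In Sox10ko semaphorins became 17.6%, neuropilins 29.0%, A plexins 41.3%, class 4 12% and class 5 3.32%. Each of these class shares kept the direction of its difference between the groups. Members below 1 CPM rest on few reads.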

Other observations

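Cultures of 1 group differed in some members by more than in most genes. For 22 members averaging 5 CPM or more, the within-group SD on the log2(CPM + 0.1) scale had a median of 0.25 (control) and 0.37 (Sox10ko), and for all 10236 genes at that level 0.12 and 0.18. Sema3a had a larger SD in control (1.34) than 99.9% of these genes. In Sox10ko Sema4f (SD 1.19, percentile 98.8) and Sema7a (SD 0.80, percentile 97.3) had the largest SD of these 22 members, and in both the third library stood apart, low for Sema4f and high for Sema7a. At the other end, Plxnb1 and Sema4c had Sox10ko libraries closer together than most genes (percentiles 2.76 and 6.68).

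Chromosome 6 carries Plxna4, Sema4f, Plxna1 and Plxnd1, with log2 fold changes of -2.83, -1.29, 0.15 and -1.22, while the median over the 807 tested genes of that chromosome was 0.10. Chromosome medians ran from -0.24 on chromosome 14, where Sema3g lies, to 0.15 on chromosome 17, where Sema6b lies.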
